A study of Mus musculus with 6 samples.

Results

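The genes described here are receptors of the epidermal growth factor (EGF) family and the ligands that bind them. They are 10 genes picked by name from the 55385 mouse genes of the count table: the receptors Egfr, Erbb2 and Erbb3, and the ligands Tgfa, Areg, Ereg, Btc, Hbegf, Epgn and Nrg1. RNA was sequenced in bulk from PDVC57, an established mouse squamous carcinoma line of keratinocyte origin. The series compares 3 libraries of PDVC57 cells labelled Sox2 KO (Sox2 knockout) with 3 labelled Sox2 overexpression, and according to its design text these are Sox2-low and Sox2-high carcinoma cells taken from tumours grown as grafts. Both groups carry an altered Sox2, and unmodified cells were not analysed here. The overexpression construct, the number of clones and the number of tumours or host mice are not in the labels, so the p-values measure only the spread between these libraries, which may be technical.

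ErbB receptors are tyrosine kinases of the cell surface that signal as pairs. EGFR (the product of Egfr) binds TGF-alpha, amphiregulin, epiregulin, betacellulin, HB-EGF and epigen, ERBB2 has no known ligand of its own and acts as the preferred partner of the others, and ERBB3 binds neuregulins and has a weak kinase. The ligands are made as precursors anchored in the membrane and are cut free by ADAM proteases. In epidermis and in squamous carcinoma, keratinocytes make these ligands themselves and respond to them, and the pathway drives proliferation, migration and wound closure through RAS, MAPK and PI3K.

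Library totals lay between 31247976 and 38543221 counts. Sox2 itself, the gene altered in both groups, had 25 to 49 counts in the knockout libraries and 2566 to 4095 with overexpression, which is 6.58 ± 0.33 (SE) as a log2 fold change (edgeR, adjusted p = 2.29e-06). The libraries also differed in markers of cell types. Keratinocyte markers, such as Krt5, Trp63 and Epcam, were detected in every library. With overexpression 16 of 24 passed the threshold upward and 0 downward (median log2 fold change 1.11), beside 13.6% and 18.0% of all tested genes. Their summed level was 7627 to 12114 CPM (counts per 1000000 counts) in the knockout libraries and 19856 to 25531 CPM with overexpression. Fibroblast markers were lower past the threshold in the overexpression libraries for 10 of 10 genes, beside 18.0% of all tested genes. Their median log2 fold change was -7.65, with summed levels of 53315 to 81334 CPM against 284 to 474 CPM. None of these 10 markers was at 0 in a whole group. In bulk samples fewer cells of a type and less RNA per cell cannot be told apart. Which cells made these marker transcripts, the carcinoma cells included, was not tested.

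With overexpression, the receptors moved in opposite directions: Egfr fell to 0.444 of its knockout level, while Erbb2 and Erbb3 rose 1.99-fold and 2.08-fold. Of the EGFR ligands, Hbegf, Tgfa, Areg and Btc rose, by between 2.00-fold and 5.67-fold. Ereg, Epgn and Nrg1 did not pass the threshold. In all, 6 of the 10 genes were higher and 1 was lower at an adjusted p under 0.05 in edgeR's quasi-likelihood test, where 13.6% of the 18504 tested genes were higher, 18.0% lower and 31.6% changed in either direction. The median log2 fold change of the family was 1.00, and that of all tested genes -0.016. All 10 passed the count filter, and the smallest count of any of them in a library was 14. For 7 of the 10, the same genes that passed the test, no library of one group lay within the range of the other (6 higher, 1 lower), against 50.9% of all tested genes (24.4% higher, 26.5% lower). These calls use TMM scaling, which sets the bulk of all genes equal between libraries. With libraries scaled to the keratinocyte markers instead, 1 gene (Btc) was higher and 2 (Egfr and Nrg1) were lower, while 1.78% of all tested genes were higher and 67.1% lower.

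**Figure D1:**
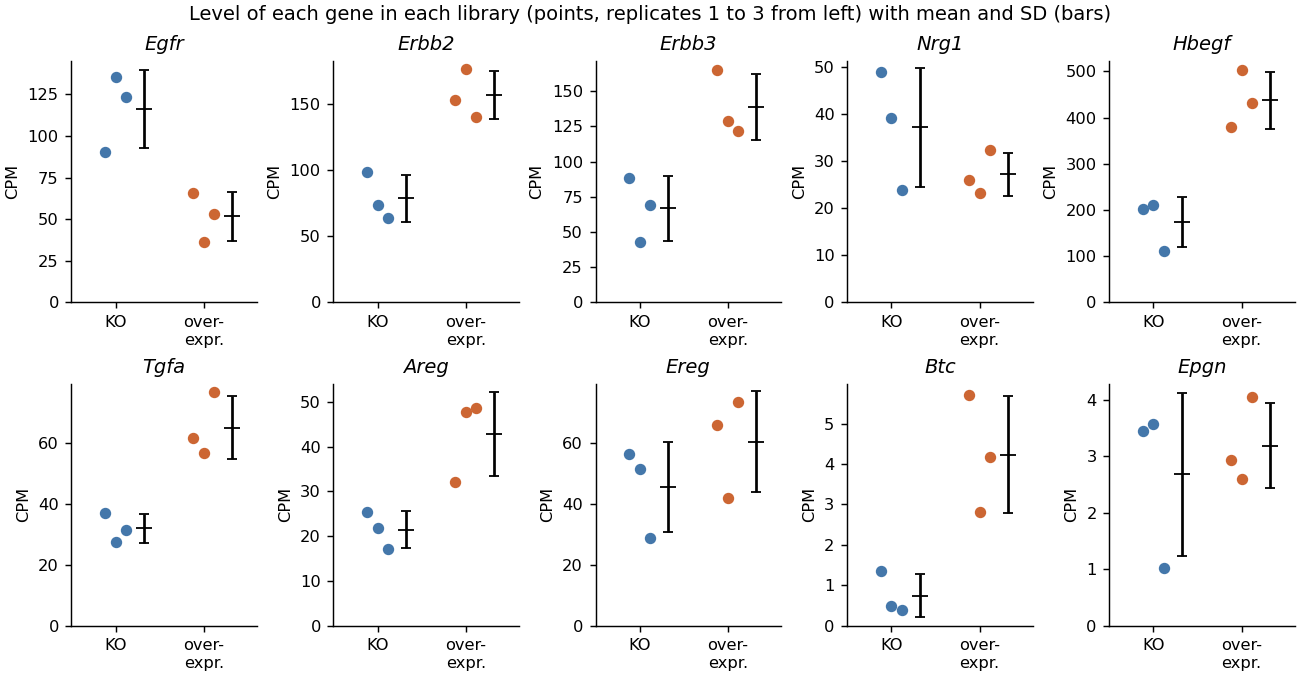
Level of each EGF family gene in CPM (vertical axis starting at 0) in the 3 knockout and 3 overexpression libraries, with the mean and SD of each group as bars. Egfr is lower in every overexpression library, Erbb2, Erbb3, Hbegf, Tgfa, Areg and Btc are higher in each of them, and Nrg1, Ereg and Epgn overlap.

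Egfr (ENSMUSG00000020122, GRCm38 chromosome 11, 16752203 to 16918158, plus strand) encodes the receptor shared by the EGF-like ligands. Its level was 90.3, 136 and 123 CPM in knockout replicates 1, 2 and 3 and 65.6, 36.1 and 53.2 CPM in overexpression replicates 1, 2 and 3. The lowest knockout library thus lay above the highest overexpression library. The means were 116 ± 23.4 and 51.6 ± 14.8 CPM (SD, n = 3 each), and the log2 fold change was -1.17 ± 0.24 (SE, 95% interval -1.73 to -0.62, edgeR, adjusted p = 0.00647). Fibroblasts also express Egfr, and the fibroblast markers given above fell with it; the part of those cells in the Egfr result was not tested.

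Erbb2 (ENSMUSG00000062312, chromosome 11, 98412470 to 98437716, plus strand) encodes the partner receptor that is amplified in some carcinomas. It was measured at 98.5, 74.1 and 63.9 CPM with knockout and at 153, 177 and 141 CPM with overexpression. Every overexpression library was above every knockout library, and the log2 fold change was 0.99 ± 0.19 (SE, 95% interval 0.56 to 1.43, edgeR, adjusted p = 0.00447). Erbb3 (ENSMUSG00000018166, chromosome 10, 128567523 to 128589652, minus strand) encodes the neuregulin receptor. It had 88.3, 42.8 and 69.2 CPM with knockout and 165, 129 and 122 CPM with overexpression. The knockout libraries varied more among themselves (coefficient of variation 34.2%) than those with overexpression (16.9%), and the groups did not overlap (log2 fold change 1.05 ± 0.26, SE, edgeR, adjusted p = 0.0148). Schwann cells also express Erbb3. Their defining factor Sox10 had 17, 120 and 10 counts in the knockout libraries and at most 2 in an overexpression library, and Foxd3, a factor of their precursors, had 4, 41 and 0 counts against 0 in each overexpression library. Most of these counts were in knockout replicate 2, and neither gene passed the count filter. Of the 6 Schwann cell markers, 3 passed the count filter and 0 of them the threshold, among them S100b and Mbp with log2 fold changes of -0.87 and 0.23 (edgeR). The summed level of the 6 was 23.0 to 29.5 CPM with knockout and 24.3 to 27.3 CPM with overexpression, most of it from Mbp (means of 19.4 and 22.8 CPM). The part of these cells in the Erbb3 result was not tested.

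The promoters of Egfr and Erbb2 are shown because these receptors moved in opposite directions. Of the 10 genes, 6 (Egfr, Erbb2, Tgfa, Areg, Btc and Epgn) were matched by symbol in RefSeq's promoter table for GRCm38.p6, which gives 300 bases around an annotated start. Capitals mark TATAAA and GGGCGG, the core letters of a TATA box and of a GC box bound by SP1, searched on both strands. No matches share bases in the printed windows. The window of Egfr is chr11:16751953-16752252 and that of Erbb2 is chr11:98412234-98412533, both on the plus strand.
Egfr: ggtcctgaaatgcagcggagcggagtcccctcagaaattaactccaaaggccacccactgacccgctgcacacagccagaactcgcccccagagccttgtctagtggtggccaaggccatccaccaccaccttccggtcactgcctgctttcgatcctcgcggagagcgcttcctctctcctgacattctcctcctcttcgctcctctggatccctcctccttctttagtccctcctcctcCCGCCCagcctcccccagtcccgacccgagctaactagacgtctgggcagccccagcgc
Erbb2: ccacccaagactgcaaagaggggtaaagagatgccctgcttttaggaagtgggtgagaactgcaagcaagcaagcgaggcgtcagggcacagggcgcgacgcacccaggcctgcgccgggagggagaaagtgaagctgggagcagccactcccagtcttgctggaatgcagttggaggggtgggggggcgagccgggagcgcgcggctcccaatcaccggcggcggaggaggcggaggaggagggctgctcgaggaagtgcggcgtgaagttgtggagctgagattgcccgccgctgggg
Egfr has a GC box match on the minus strand, whose first letter is 9 bases before the start site, and Erbb2 has neither motif. GGGCGG occurs in 35.7% of the 32851 promoters of the table and TATAAA in 13.6%. ACAAAG and ACAATG, letters found at the core of many SOX factor sites, were searched on both strands as well. They occur in 18.7% and 12.6% of all promoters and in 0 of the 6 matched here, which says only that these letters are not in these windows.

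The balance of the receptors was also measured within each library, where no scaling between libraries enters. The shares can still depend on the mix of cells. Fibroblasts also express Egfr, and their part in the shares was not tested. Counts were divided by the length of all annotated exons of a gene, since a longer transcript gives more reads. Egfr made up 19.2%, 35.9% and 31.4% of the summed receptor counts per kilobase in knockout replicates 1, 2 and 3, and 9.23%, 5.45% and 9.05% in overexpression replicates 1, 2 and 3. The groups did not overlap. Erbb2 took 41.2% ± 5.21 with knockout and 52.3% ± 5.52 with overexpression, and Erbb3 took 30.0% ± 7.53 and 39.8% ± 3.69 (SD, n = 3 each). The ratio of Erbb2 to Egfr was 2.37, 1.19 and 1.13 in the knockout libraries and 5.09, 10.6 and 5.74 in the overexpression libraries. Erbb2 was therefore the most abundant receptor transcript per kilobase in every library, and exceeded Egfr by more in each overexpression library than in any knockout library. This rank depends on the division by length. By raw counts, Egfr had the largest share in knockout replicates 2 (53.7%) and 3 (48.1%). Erbb3 had it in overexpression replicate 1 (43.0%, with 39.9% for Erbb2). Erbb4, the remaining receptor of the family, had 0 counts in the knockout libraries and at most 3 in an overexpression library, which is no more than a count of 0 allows, so it was not tested.

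**Figure D2:**
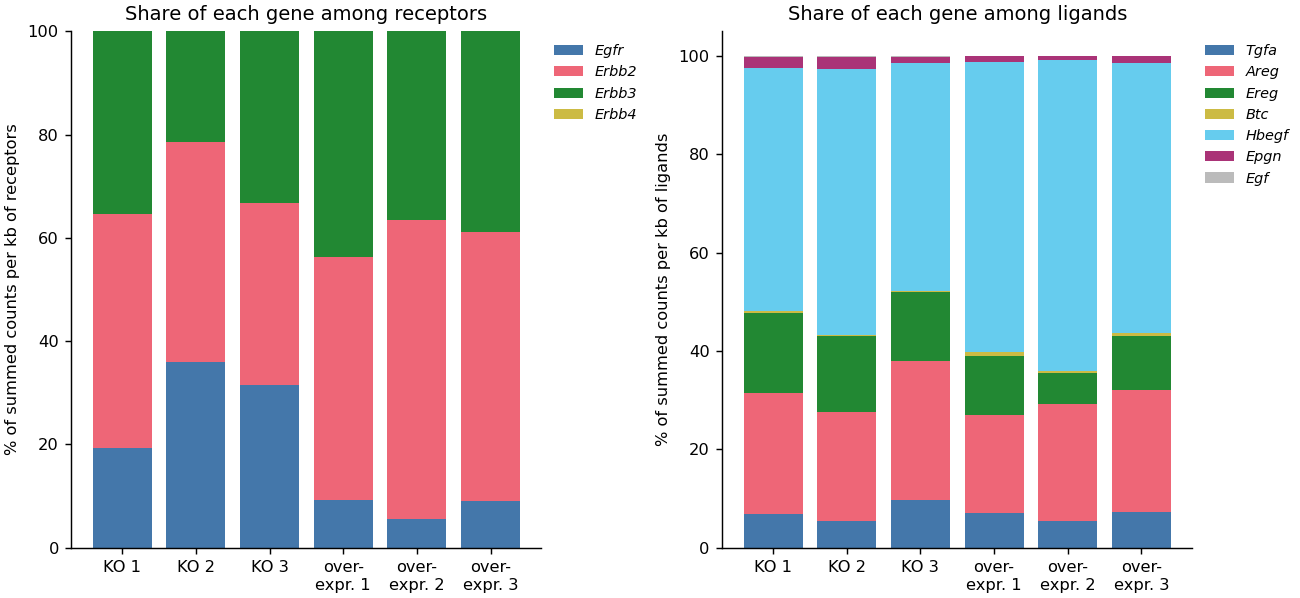
Share of each gene in the summed counts per kilobase of exon of the receptors (left) and of the EGFR ligands (right), in percent, with 1 bar per library. The Egfr segment takes 19.2% to 35.9% of the knockout bars and 5.45% to 9.23% of the overexpression bars, and Hbegf is the largest ligand segment in all 6 libraries.

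Hbegf (ENSMUSG00000024486, chromosome 18, 36504927 to 36515805, minus strand) encodes heparin-binding EGF-like growth factor, a ligand of wound edges that is retained by heparan sulphate. It was the most abundant ligand, with 202, 210 and 112 CPM with knockout and 380, 503 and 431 CPM with overexpression. The lowest overexpression library was above the highest knockout library. The means were 175 ± 54.5 and 438 ± 61.8 CPM (SD, n = 3 each), a 2.51-fold rise (log2 fold change 1.33 ± 0.25, SE, edgeR, adjusted p = 0.00417). Tgfa (ENSMUSG00000029999, chromosome 6, 86195223 to 86275719, plus strand) encodes TGF-alpha, which keratinocytes make and respond to. Its levels were 37.0, 27.6 and 31.5 CPM with knockout and 61.6, 56.9 and 76.9 CPM with overexpression. No library crossed between the groups, and the log2 fold change was 1.02 ± 0.18 (SE, edgeR, adjusted p = 0.00258).

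Areg (ENSMUSG00000029378, chromosome 5, 91139599 to 91148432, plus strand) encodes amphiregulin, a ligand of lower affinity. It had 25.4, 21.7 and 17.2 CPM with knockout and 32.1, 47.8 and 48.7 CPM with overexpression. Overexpression replicate 1 was nearest to the knockout libraries and still above all of them (log2 fold change 1.00 ± 0.22, SE, edgeR, adjusted p = 0.00837). Btc (ENSMUSG00000082361, chromosome 5, 91357261 to 91402994, minus strand) encodes betacellulin, which can bind EGFR and ERBB4. Its counts were 46, 15 and 14 with knockout and 187, 83 and 165 with overexpression, or 1.35, 0.496 and 0.384 CPM against 5.71, 2.81 and 4.17 CPM. Btc thus had the largest fold change of the family, 5.67-fold, and the lowest knockout level (log2 fold change 2.50 ± 0.52, SE, 95% interval 1.31 to 3.70, edgeR, adjusted p = 0.00681). Knockout replicate 1 held most of its knockout signal: leaving it out took the knockout mean from 0.743 to 0.4399 CPM, and the log2 fold change to 3.26.

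The promoters of 3 ligand genes that rose are given with the same motifs in capitals: Tgfa (chr6:86194972-86195271, plus strand), Areg (chr5:91139349-91139648, plus strand) and Btc (chr5:91402945-91403244, minus strand, printed in the direction of transcription).
Tgfa: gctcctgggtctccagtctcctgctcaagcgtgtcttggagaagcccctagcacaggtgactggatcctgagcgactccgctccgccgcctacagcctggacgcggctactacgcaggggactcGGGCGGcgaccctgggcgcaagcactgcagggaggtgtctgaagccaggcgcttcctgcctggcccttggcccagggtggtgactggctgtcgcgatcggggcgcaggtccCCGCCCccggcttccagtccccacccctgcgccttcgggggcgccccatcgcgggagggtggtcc
Areg: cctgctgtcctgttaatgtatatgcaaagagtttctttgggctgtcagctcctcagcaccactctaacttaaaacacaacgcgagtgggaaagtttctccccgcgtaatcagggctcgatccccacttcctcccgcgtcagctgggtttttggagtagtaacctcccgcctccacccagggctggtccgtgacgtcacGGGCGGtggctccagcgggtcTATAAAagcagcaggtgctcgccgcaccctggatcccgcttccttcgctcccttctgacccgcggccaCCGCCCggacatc
Btc: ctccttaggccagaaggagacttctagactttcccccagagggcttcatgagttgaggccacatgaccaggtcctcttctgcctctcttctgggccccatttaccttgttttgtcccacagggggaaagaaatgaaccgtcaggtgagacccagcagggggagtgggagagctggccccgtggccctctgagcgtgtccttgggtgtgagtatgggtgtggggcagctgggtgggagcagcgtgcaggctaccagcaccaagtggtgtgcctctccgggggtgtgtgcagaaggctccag
Areg has a TATA box match whose first letter is 31 bases before its start site and GC box matches on both strands. Tgfa has GC box matches on both strands and no TATA box match, and Btc has neither. G and C made up 70.7% of the Tgfa window, 59.3% of that of Areg and 60.3% of that of Btc, with a median of 52.7% over all promoters of the table. None of the searched motifs was present in all of these 3 windows.

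The other ligands did not pass the threshold. Ereg (ENSMUSG00000029377) encodes epiregulin and had 56.4, 51.6 and 28.8 CPM with knockout and 65.9, 41.8 and 73.6 CPM with overexpression. The groups overlapped, and the log2 fold change of 0.41 had a 95% interval from -0.25 to 1.06 (edgeR, adjusted p = 0.313). Epgn (ENSMUSG00000035020) encodes epigen, an EGFR ligand of low affinity, and was low in all libraries, at 3.46, 3.57 and 1.01 CPM with knockout and 2.93, 2.60 and 4.05 CPM with overexpression. Its log2 fold change was 0.26 with a 95% interval from -0.81 to 1.32 (edgeR, adjusted p = 0.705), and was -0.13 without knockout replicate 3, the library with the lowest value. Nrg1 (ENSMUSG00000062991) encodes neuregulin 1, the ligand of ERBB3, and had 48.8, 39.1 and 23.8 CPM with knockout and 26.1, 23.3 and 32.3 CPM with overexpression. Its log2 fold change was -0.45 with a 95% interval from -1.05 to 0.14 (edgeR, adjusted p = 0.223). The intervals of Ereg and Epgn include a doubling, and those of Epgn and Nrg1 do not leave out a fall of 0.8 on the log2 scale. Counts are per gene, so the isoforms of Nrg1 were not separated.

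The order of the genes by mean CPM per kilobase of exon was similar in both groups. With knockout it ran from Hbegf (36.1 ± 11.3) through Areg (17.6 ± 3.40), Erbb2 (15.1 ± 3.41), Erbb3 (11.1 ± 3.79), Ereg (11.05 ± 3.57), Egfr (10.3 ± 2.07), Tgfa (4.94 ± 0.729), Nrg1 (3.60 ± 1.22) and Epgn (1.48 ± 0.800) to Btc (0.164 ± 0.117 CPM per kilobase, SD, n = 3). With overexpression it was Hbegf (90.6 ± 12.8), Areg (35.3 ± 7.71), Erbb2 (30.1 ± 3.54), Erbb3 (23.0 ± 3.89), Ereg (14.6 ± 4.01), Tgfa (10.04 ± 1.62), Egfr (4.56 ± 1.31), Nrg1 (2.63 ± 0.444), Epgn (1.77 ± 0.419) and Btc (0.936 ± 0.321 CPM per kilobase, SD, n = 3). Egfr and Tgfa changed places. Neighbours whose means lay within their summed SDs were Areg, Erbb2 and Erbb3 in both groups. With knockout, Erbb3, Ereg and Egfr and also Tgfa and Nrg1 were such neighbours. With overexpression, Ereg and Tgfa and also Nrg1 and Epgn were. These SDs do not compare genes within a library, where Erbb2 was above Erbb3 per kilobase each time. Hbegf supplied 49.5%, 54.0% and 46.4% of the summed EGFR ligand counts per kilobase in knockout replicates 1, 2 and 3 and 58.9%, 63.3% and 55.0% in overexpression replicates 1, 2 and 3. Areg supplied 25.1% ± 3.03 and 22.8% ± 2.65, and Ereg 15.2% ± 1.13 and 9.70% ± 3.11 (SD, n = 3 each). Tgfa kept 7.26% ± 2.25 and 6.58% ± 1.09. These exon lengths cover all annotated isoforms, so a gene with many alternative exons, such as Nrg1 (10351 bases), is placed lower than its main isoform would be.

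Because the keratinocyte markers rose together with most of the family, the fit was repeated with each library scaled to those 24 markers by their median ratio. Over all tested genes, the median log2 fold change moved from -0.016 to -1.20. Relative to the keratinocyte markers, Egfr was lower by more (log2 fold change -2.35, 95% interval -3.09 to -1.61, edgeR, adjusted p = 7.92e-07). Nrg1 was then lower past the threshold (log2 fold change -1.57, edgeR, adjusted p = 0.000223; 0.000223 to 0.597 over the alternatives). Btc was still higher (log2 fold change 1.45, 95% interval 0.29 to 2.61, edgeR, adjusted p = 0.0254). The rises of the other 5 genes did not pass: Hbegf had a log2 fold change of 0.21 (95% interval -0.43 to 0.85), Erbb3 -0.13 (-0.84 to 0.58), Erbb2 -0.15 (-0.81 to 0.51), Areg -0.17 (-0.86 to 0.51) and Tgfa -0.18 (-0.86 to 0.50). Their adjusted p-values lay between 0.543 and 0.740 (edgeR). Ereg and Epgn went below 0, to -0.69 and -0.80, without passing. The keratinocyte markers did not rise evenly themselves, with log2 fold changes from 0.15 to 3.42, so this scaling rests on their middle.

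**Figure D3:**
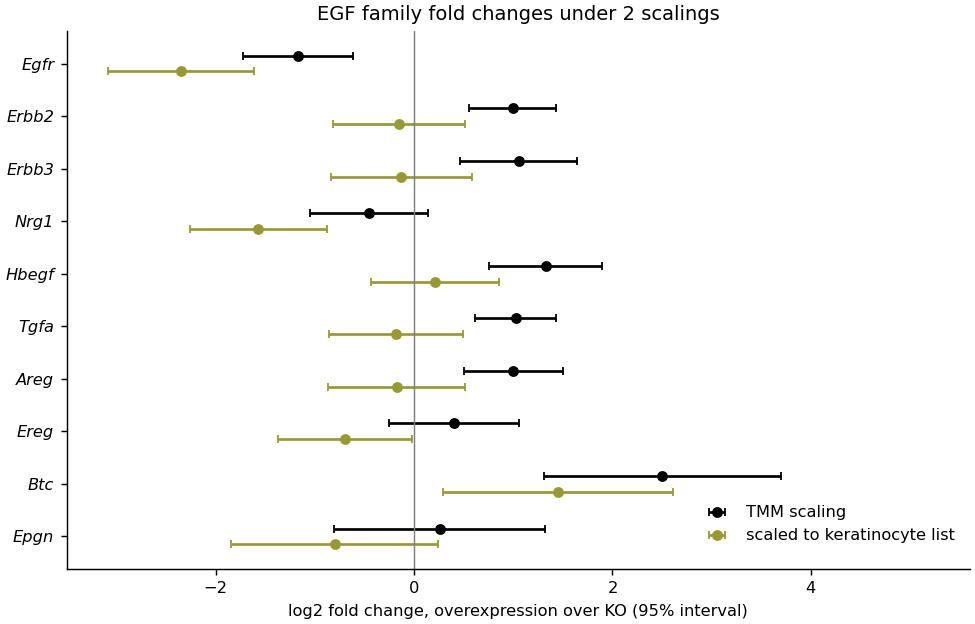
Log2 fold change of each EGF family gene, overexpression over knockout, with its 95% interval, under TMM scaling (black) and with libraries scaled to the keratinocyte markers (olive). Egfr lies below 0 and Btc above 0 under both, while the intervals of Erbb2, Erbb3, Hbegf, Tgfa and Areg lie above 0 under TMM and span 0 under the keratinocyte scaling.

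Levels were also set against a single epithelial gene. Epcam, an adhesion molecule of epithelial cells that fibroblasts lack, was chosen for this after its values were seen. Counts per kilobase of Erbb2 relative to Epcam were 0.105, 0.106 and 0.0742 in the knockout libraries and 0.0825, 0.0819 and 0.0821 in the overexpression libraries, so the groups overlapped. The groups also overlapped for Erbb3, Hbegf, Tgfa, Areg, Ereg and Epgn, and for Btc, which had passed upward under the keratinocyte scaling. Egfr relative to Epcam was 0.0443, 0.0894 and 0.0658 with knockout and 0.0162, 0.00769 and 0.0143 with overexpression, without overlap. Nrg1 relative to Epcam did not overlap either, with means of 0.0227 ± 0.00774 and 0.00732 ± 0.00204 (SD, n = 3 each). Epcam itself rose (log2 fold change 1.20, edgeR, adjusted p = 0.00125), so an unchanged gene would be lower relative to it. The share of all tested genes whose groups separate on this ratio was not computed. Under the keratinocyte scaling, 67.1% of all tested genes were lower. Overlap does not show that the ratios are equal: the mean ratio of Ereg was 0.0704 ± 0.0260 with knockout and 0.0411 ± 0.0152 with overexpression, and that of Btc 0.000996 ± 0.000591 and 0.00261 ± 0.00103 (SD, n = 3 each). Fibroblasts also express Nrg1, and the part of the fall in their markers in the lower Nrg1 ratio was not tested.

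**Figure D4:**
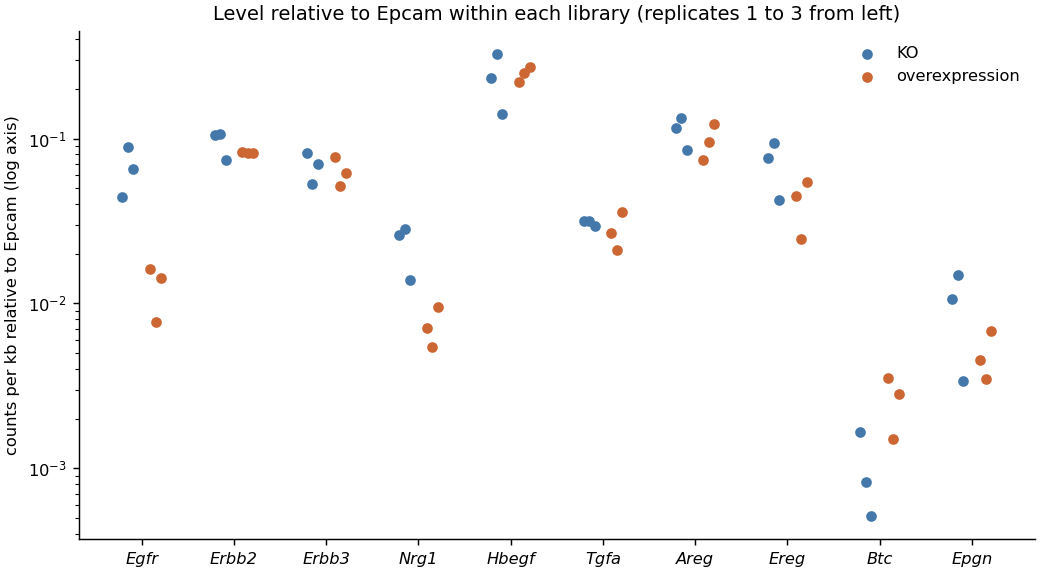
Counts per kilobase of each EGF family gene divided by those of Epcam in the same library (log axis), for 3 knockout and 3 overexpression libraries. Egfr and Nrg1 are lower in every overexpression library than in any knockout library, and the other 8 genes overlap between the groups. The share of all tested genes that separate on this ratio was not computed.

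Epgn, Ereg, Areg and Btc lie side by side on chromosome 5, in that order, within 376 kb (91027464 to 91402994 on GRCm38), and Mthfd2l precedes Epgn. Areg and Btc, at one end of the cluster, rose, and the intervals of Epgn and Ereg included 0. Whether the fold changes of these neighbours differ from each other was not tested. Of the 10 genes, Erbb2, Ereg, Nrg1 and Tgfa have exons that overlap a gene on the other strand, by 9, 141, 482 and 118 bases. The strand setting of the counting is not known, so a part of their reads could come from those neighbours.

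Other genes of the pathway were examined by list: 54 genes, of which 52 were tested, 12 higher and 7 lower past the threshold, beside 13.6% higher and 18.0% lower of all tested genes. Under the keratinocyte scaling 2 of these 52 were higher and 36 lower, beside 1.78% and 67.1% of all tested genes. The 5 remaining family genes were low. Egf, the founding ligand, had 1.76 ± 0.378 CPM with knockout and 1.32 ± 0.313 with overexpression, Nrg2 had 4.06 ± 0.518 and 5.40 ± 1.18, and Nrg4 had 1.38 ± 0.263 and 0.788 ± 0.0921 (SD, n = 3 each). In edgeR's quasi-likelihood test 0 of these 3 passed, with adjusted p-values of 0.405, 0.277 and 0.113. Before adjustment 1 of them, Nrg4, was under 0.05, and DESeq2 called 0. Under the keratinocyte scaling Egf and Nrg4 were lower past the threshold, with log2 fold changes of -1.60 (edgeR, adjusted p = 0.0122; 0.0122 to 0.723 over the alternatives) and -1.999 (edgeR, adjusted p = 0.00367; 0.00367 to 0.316 over the alternatives). Erbb4 and Nrg3 did not pass the count filter.

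Of 10 genes for the release of ligands, 5 were lower and 0 higher (median log2 fold change -0.42). Over all tested genes 18.0% were lower and 13.6% higher. Under the keratinocyte scaling 10 of the 10 were lower, beside 67.1% of all tested genes. Adam17, the main protease for TGF-alpha, amphiregulin and HB-EGF, fell from 73.6 ± 11.3 to 40.3 ± 6.65 CPM (SD, n = 3 each; log2 fold change -0.87, edgeR, adjusted p = 0.00681), and 311 bases of its exons overlap Iah1 on the other strand. Rhbdf2, which encodes the iRhom2 partner of ADAM17, fell by 0.68 on the log2 scale (edgeR, adjusted p = 0.0113), a call lost without knockout replicate 2 (adjusted p = 0.0538, edgeR; 1.95e-05 to 0.0538 over the alternatives). Its paralogue Rhbdf1 had a log2 fold change of 0.42 (edgeR, adjusted p = 0.0537). Adam12, a protease also made by activated stromal cells, went from 265 ± 46.8 to 13.8 ± 6.70 CPM (SD, n = 3 each; log2 fold change -4.26, edgeR, adjusted p = 4.65e-05) in the direction of the fibroblast markers, whose part in this was not tested. Adam8 and Adam9 were the other 2 that were lower, and Adam10, the main protease for betacellulin and EGF, had a log2 fold change of -0.15 (edgeR, adjusted p = 0.667). The names of Rhbdf1, Adam8, Adam9 and Adam10 were chosen after their values were seen. Without knockout replicate 2, 3 genes of this list were lower, and without overexpression replicate 1 or 2, 1 gene was higher. RLE scaling and DESeq2 also called 1 gene of this list higher.

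Among 13 genes that restrain or degrade the receptors, 1 was higher, 2 were lower and 10 did not pass, with a median log2 fold change of -0.15. Over all tested genes 31.6% changed. Under the keratinocyte scaling 11 of the 13 were lower and 1 higher, beside 67.1% and 1.78% of all tested genes. Cblc, which encodes the CBL ubiquitin ligase of epithelia, went up from 10.4 ± 2.47 CPM to 43.8 ± 11.4 CPM (SD, n = 3 each; log2 fold change 2.07, edgeR, adjusted p = 0.000347) and was also higher under the keratinocyte scaling (log2 fold change 0.91, edgeR, adjusted p = 0.0318; 3.29e-13 to 0.0318 over the alternatives). Its relative Cblb fell by 0.65 on the log2 scale (edgeR, adjusted p = 0.0150), with an adjusted p of 0.0632 without knockout replicate 3 (3.04e-05 to 0.0632 over the alternatives). Lrig3 fell by 0.66 (edgeR, adjusted p = 0.0452), a call lost in each fit without 1 library except that without knockout replicate 3, with adjusted p-values up to 0.171 (edgeR). Each fit without 1 library left 1 gene of this list lower. Of 14 adaptors and effectors that bind the activated receptors, Grb7 was the 1 that passed, beside 31.6% of all tested genes. Without overexpression replicate 2, 2 passed. Under the keratinocyte scaling 12 of the 14 were lower and 1 was higher, beside 67.1% and 1.78% of all tested genes. Grb7 encodes an adaptor of ERBB2, starts 8.68 kb beyond the end of Erbb2 and went from 16.9 ± 3.44 CPM up to 77.2 ± 18.1 CPM (SD, n = 3 each; log2 fold change 2.19, edgeR, adjusted p = 0.000129). Under the keratinocyte scaling its log2 fold change was 1.03 (edgeR, adjusted p = 0.0102; 1.17e-17 to 0.0102 over the alternatives).

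Transcripts that report and damp MAPK signalling downstream of these and other receptors were mostly higher: 10 of 12 passed upward and 0 downward (median log2 fold change 0.97). Over all tested genes 13.6% were higher and 18.0% lower. Etv5, a transcription factor gene, went from 16.6 ± 2.47 to 48.8 ± 9.72 CPM, Dusp4, a MAPK phosphatase gene, from 90.0 ± 21.7 to 287 ± 56.1 CPM, and Spry1, a Sprouty inhibitor gene, from 106 ± 26.9 to 281 ± 19.5 CPM (SD, n = 3 each). Their log2 fold changes were 1.55, 1.67 and 1.40, with edgeR adjusted p-values of 0.000523, 0.000612 and 0.000922. The exons of Spry1 overlap those of Gm42922 on the other strand. Scaled to the keratinocyte markers, 0 of the 12 were higher and 1, Spred1 (named after its value was seen), was lower. Of all tested genes 1.78% were then higher and 67.1% lower. The log2 fold changes of Etv5, Dusp4 and Spry1 under this scaling were 0.38, 0.53 and 0.26 (edgeR, adjusted p = 0.316, 0.152 and 0.464, the highest over the alternatives).

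**Figure D5:**
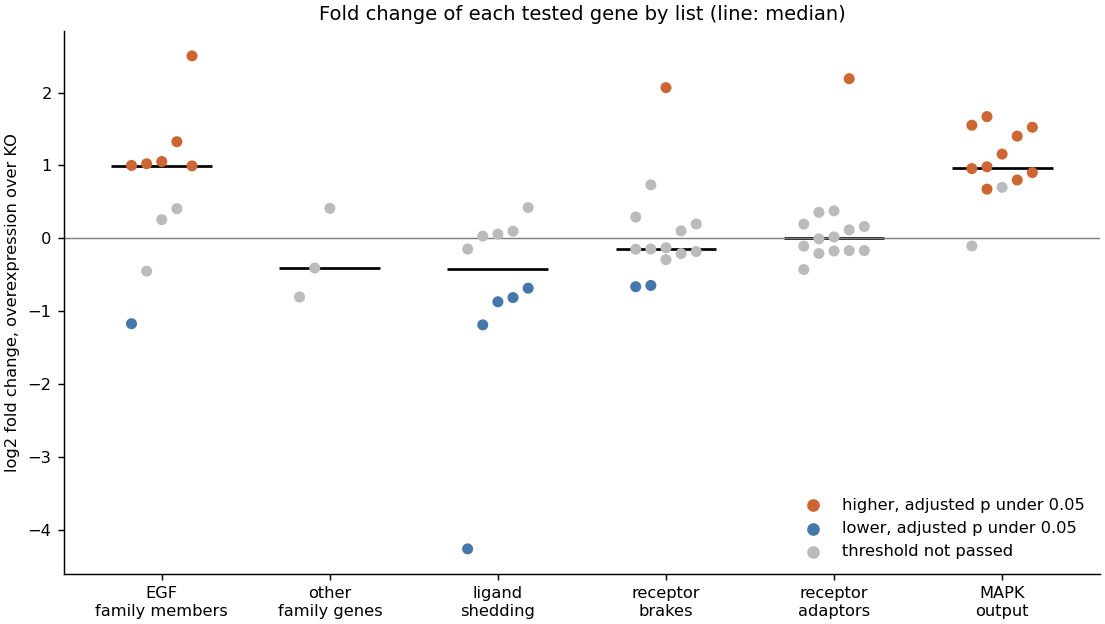
Log2 fold change, overexpression over knockout under TMM scaling, of each tested gene of the EGF family and of 5 pathway lists, coloured by the call at an adjusted p of 0.05 (edgeR), with the median of each list as a line. The EGF family and the MAPK output genes have medians of 1.00 and 0.97, and the other lists have medians between -0.42 and 0.01.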

How the data were processed

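RNA of 6 PDVC57 libraries was extracted and prepared with kits for small samples, per the labels' protocols. The authors deposited 1 table of whole-number counts per gene, not normalized, with 1 column per library, matched to its sample through the description in the labels. The submitters' processing notes name kallisto 0.44.0 and mm10, with no role given. Kallisto estimates counts, so the deposited counts may have been rounded. The annotation and strand setting are not given in the sources used here. Of 55481 rows, 96 name no mouse gene (ERCC spike-ins and reporters). They hold at most 2.23e-05% of a library and were left out. Symbols, positions and exon lengths come from GENCODE M21 (GRCm38), which matched 55144 of 55385 gene IDs.

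The filterByExpr function (at least 10 counts, 15 in total) kept the tested genes. They were scaled with TMM and compared in edgeR 4.0.16 (R 4.3.3) by quasi-likelihood, with group as the only term and Benjamini-Hochberg adjustment over 18504 genes (threshold 0.05). CPM are counts per 1000000 TMM-scaled counts. A standard error is the log2 fold change divided by the square root of F, and 95% intervals use the test's degrees of freedom. A count of 0 allows about 3 counts, 0.0759 to 0.101 CPM depending on the library, for counting error only. The fit was tested on simulated data. Replicates within a group differed by more than sampling noise (chi-square per degree of freedom at least 43.8).

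The EGF family, the pathway lists (remaining family genes, ligand shedding, receptor brakes, adaptors, MAPK output) and the markers (keratinocyte, fibroblast, white blood cell, endothelium, mural cell, Schwann cell, melanocyte) were chosen with earlier results of these data known. White blood cell markers were lower for 5 of 7 tested, endothelial for 6 of 7, mural for 5 of 6 (Notch3 higher), melanocyte for 1 of 4 and Schwann cell for 0 of 3. Of all tested genes 18.0% were lower. Genes named are all family genes and, per pathway list, the 3 with the smallest p in each direction past the threshold; others are said to be chosen later. Alternatives were RLE and upper-quartile scaling, scaling to the keratinocyte list, no filter beyond 1 count, robust dispersion, a replicate block, DESeq2 1.42.0 and leaving out each library, and for shares, raw counts. The ratio to Epcam was added after the data were seen. The labels give no batch or date.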

Additional observations from a re-analysis of the deposited data

Results flagged for a closer look

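The reporter sequence mCherry, which names no mouse gene and entered no comparison, had 8 counts in knockout replicate 3, above the 3 counts that a count of 0 allows, with 1 count in knockout replicate 2 and 0 in the other libraries.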

How the results depend on the processing

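All 7 family genes that passed the threshold did so in each of the 6 fits that left out 1 library and under every other alternative except the keratinocyte scaling, where 1 was higher and 2 were lower. Under that scaling, the log2 fold changes of Erbb2 (-0.15), Erbb3 (-0.13), Tgfa (-0.18), Areg (-0.17), Ereg (-0.69), Epgn (-0.80) and Nrg2 (-0.80) reversed, pathway genes passing were 2 higher and 36 lower (12 and 7 as reported), and all genes were 329 higher and 12421 lower (2519 and 3329 as reported), so that 2.58% of calls were higher in place of 43.1%. Without knockout replicate 3, the log2 fold change of Epgn was -0.13, and it ranged from -0.13 to 0.52 over the fits without 1 library. Leaving out 1 library gave 4 to 6 pathway genes lower, the fewest without knockout replicate 2, and 1412 to 2539 of all genes higher, with 1412 without knockout replicate 2 and 1598 without replicate 3. Shares from raw counts, not divided by length, were 44.8% and 14.8% for Egfr among receptors with knockout and overexpression, 29.9% and 45.4% for Erbb2, and among ligands 62.1% and 71.1% for Hbegf, 7.84% and 6.91% for Areg and 12.1% and 10.6% for Tgfa, since longer transcripts then weigh more. With the replicate number as a block, 6 family genes were higher and 1 lower and Sox2 had a log2 fold change of 6.57; the block changed no call of a named gene. Libraries of the same number did not deviate together (correlations of 0.0508, 0.0223 and -0.0399). This gave no sign that the number pairs them, but with 3 libraries per group it cannot exclude a pairing. The cause of the shifts under the keratinocyte scaling was not tested. Depth limits mainly Btc and Epgn, with 14 to 187 counts a library, and Erbb4.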

Other observations

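The genes around Erbb2 and around the chromosome 5 ligand cluster were read out after the main results were seen, in windows of 250 kb on each side. Of 11 tested protein-coding genes in the Erbb2 window on chromosome 11, 6 were higher and 2 lower past the threshold (edgeR). Over all tested genes 13.6% were higher and 18.0% lower. The 6 include Erbb2 and Grb7, which were already reported as higher, so they are not a separate observation. The block from Ppp1r1b through Stard3, Pgap3, Erbb2 and Mien1 to Grb7 had log2 fold changes of 2.48, 0.94, 0.76, 0.99, 0.61 and 2.19, all higher past the threshold. In the same order, the adjusted p-values were 0.0299, 0.0100, 0.0361, 0.00447, 0.0435 and 0.000129 (edgeR), and the SE of Ppp1r1b was 0.72. Fits without 1 library were not read out for Ppp1r1b, Stard3, Pgap3 and Mien1. Pgap3 and Mien1 flank Erbb2 on the minus strand, and Mien1 overlaps the last 9 bases of its exons. Beyond Grb7, Ikzf3, a transcription factor gene of lymphocytes, had a log2 fold change of -7.51 and Ormdl3, a regulator of sphingolipid synthesis, -0.53. Med1 and Cdk12, before the block, had log2 fold changes of -0.14 and -0.11 and did not pass. Under the keratinocyte scaling, Ppp1r1b (1.36) and Grb7 (1.03) had log2 fold changes above 0, while Stard3 (-0.23), Pgap3 (-0.40), Erbb2 (-0.15) and Mien1 (-0.59) lay below 0.

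Of 9 tested genes in the window of the chromosome 5 ligand cluster, 3 were higher and 1 lower, beside 13.6% and 18.0% of all tested genes. The 9 include Epgn, Ereg, Areg and Btc themselves. The higher genes were Areg and Btc, already reported above, and Parm1 (edgeR, adjusted p = 0.0470). Areg, Btc and Parm1 followed each other at one end, with log2 fold changes of 1.00, 2.50 and 1.03. At the other end, Cxcl1, a neutrophil chemokine gene, had a log2 fold change of -2.37, and Cxcl3, Cxcl2 and Mthfd2l (-0.60, 0.41 and 0.27) did not pass.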
